A study of Mus musculus with 8 samples.

Results

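Chromatin at 8 genes of mitophagy and autophagy was examined in BV2 cells, an immortalised mouse microglial line: Bnip3, Bnip3l, Fundc1, Pink1, Ulk1, Becn1, Map1lc3b and Sqstm1. The genes were chosen by name, and every accessible region within 10 kb of their gene bodies on the mouse assembly GRCm38 was taken. This gave 21 of the 40784 regions found in at least 1 library, and 8 of the 49943 genes in the RefSeq table used. All 8 genes had at least 1 such region, with 1 at Fundc1, 2 each at Pink1 and Map1lc3b, 3 each at Bnip3l, Ulk1, Becn1 and Sqstm1, and 4 at Bnip3.

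Autophagy encloses cell material in a double membrane that fuses with lysosomes, and mitophagy is the form that removes mitochondria. In low oxygen the transcription factor HIF-1 is known to induce Bnip3 and Bnip3l, whose proteins sit on the outer mitochondrial membrane and bind the LC3 proteins of the growing autophagosome. Fundc1 is a further receptor of this kind, and Pink1 is the kinase that marks damaged mitochondria for the ubiquitin ligase parkin. Ulk1 and Becn1 act at the start of autophagosome formation, Map1lc3b encodes LC3B, and Sqstm1 encodes p62, which links ubiquitinated cargo to LC3.

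Open chromatin was mapped by ATAC-seq, which uses the Tn5 transposase to cut and tag accessible DNA. BV2 cells were grown alone (monoculture) or on top of GL261 mouse glioma cells (co-culture), and were then kept for 16 h at 21% oxygen (normoxia) or below 0.1% oxygen (hypoxia). These 2 factors gave 4 groups, with 2 biological replicates in each. The cells were fixed with formaldehyde before sorting, and the labels describe a sort for cells positive for CD45, a leukocyte marker, or for GFP, without saying which applied to a given library. The labels name no genetic change in any group. BV2 and GL261 are single lines, so the groups sample cultures and not animals.

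The 8 lists held 9910 to 29658 peaks, with the shortest 2, of 13333 and 9910 peaks, both from monoculture normoxia. The estimated background, in fragments per position, was 0.758 and 1.034 for monoculture normoxia and 1.072 to 1.448 for the other 6 libraries. The start of Ptprc, which encodes CD45, had a peak in all 8 libraries, and the starts of Csf1r, Itgam and Aif1 had none in any. Of 12 microglial and macrophage marker genes, 2 had a start peak in each monoculture normoxia library and 6 to 9 in the others. Of 12 glioma and glial markers, 0 had a start peak in any monoculture library and 0 to 2 in the co-culture libraries, where Sox2 was found in 3 libraries and Nes in 2. The other 10, Olig2 and Gfap among them, had no start peak in any library. The part that residual glioma cells have in the co-culture values below was not tested. A gene start here means a region within 1 kb of the annotated start site, or of either gene end for Bnip3l and Becn1, which have no start site in the tables used.

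The sequence just upstream of 3 of the genes is shown because their peaks carry the contrasts described below, with Bnip3 open in every library, Pink1 open outside monoculture normoxia and Map1lc3b with a start peak in a single library. Each run gives the 250 bases before the start site, from RefSeq on GRCm38.p6, 5′ to 3′ on the strand of the gene. They lie at chr7:138909507-138909756 on the minus strand for Bnip3, chr4:138326297-138326546 on the minus strand for Pink1 and chr8:121590188-121590437 on the plus strand for Map1lc3b. Capitals mark ACGTG or GCGTG on either strand, the core letters that HIF factors are known to bind, and CACGTG, the E-box bound by the TFEB family.
Bnip3: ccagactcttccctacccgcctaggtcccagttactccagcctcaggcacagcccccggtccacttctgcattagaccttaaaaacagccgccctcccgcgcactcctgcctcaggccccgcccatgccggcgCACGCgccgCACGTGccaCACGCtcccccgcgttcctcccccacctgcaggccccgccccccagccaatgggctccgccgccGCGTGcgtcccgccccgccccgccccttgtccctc
Pink1: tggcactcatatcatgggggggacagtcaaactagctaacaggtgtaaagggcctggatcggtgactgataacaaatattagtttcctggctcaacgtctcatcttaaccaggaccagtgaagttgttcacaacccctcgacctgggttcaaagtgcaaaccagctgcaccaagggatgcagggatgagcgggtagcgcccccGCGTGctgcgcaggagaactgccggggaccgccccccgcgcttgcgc
Map1lc3b: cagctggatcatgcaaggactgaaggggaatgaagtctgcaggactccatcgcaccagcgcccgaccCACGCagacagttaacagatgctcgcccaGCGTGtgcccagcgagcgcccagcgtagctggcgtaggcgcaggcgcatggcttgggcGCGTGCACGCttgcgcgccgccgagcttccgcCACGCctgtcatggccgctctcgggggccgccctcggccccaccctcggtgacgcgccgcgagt
The upstream window of Bnip3 held CACGTG at positions -108 to -103 from the start site, which overlaps ACGTG on both strands, and GCGTG at 3 further places. Pink1 held a single GCGTG, Map1lc3b held 5, and Ulk1 held 1. All 5 of the capital ACGTG and GCGTG matches of Bnip3 lay inside its start region, as did 3 of 5 of Map1lc3b. The match of Pink1 lay outside the Pink1 start region, 633 to 686 bp from its summits. Fundc1 and Sqstm1 held none of the motifs, and Bnip3l and Becn1 were not in the table of upstream sequences. Thus 1 of 6 members held ACGTG and 4 of 6 held GCGTG. Of 21263 upstream windows of the same length in the table, 17.8% held ACGTG, 33.8% held GCGTG and 6.63% held CACGTG. A match describes letters in the window and is not a measured binding site.

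Each peak was placed by its percentile within its own list, ranked by the authors' −log10 p, so that 100 stands for the strongest peak of that library. Lists differed in length, so a difference in this percentile between libraries shows no change by itself. A peak in all 8 libraries was found at 5 of the 21 member regions (23.8%), against 15.6% of all regions. Start regions of Bnip3 and Bnip3l were found in all 8 libraries, as were the starts of 18.5% of protein-coding genes. Ulk1 and Fundc1 had a start region in 7 libraries, Pink1 in 6, Sqstm1 in 5, and Becn1 and Map1lc3b in 1.

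**Figure D1:**
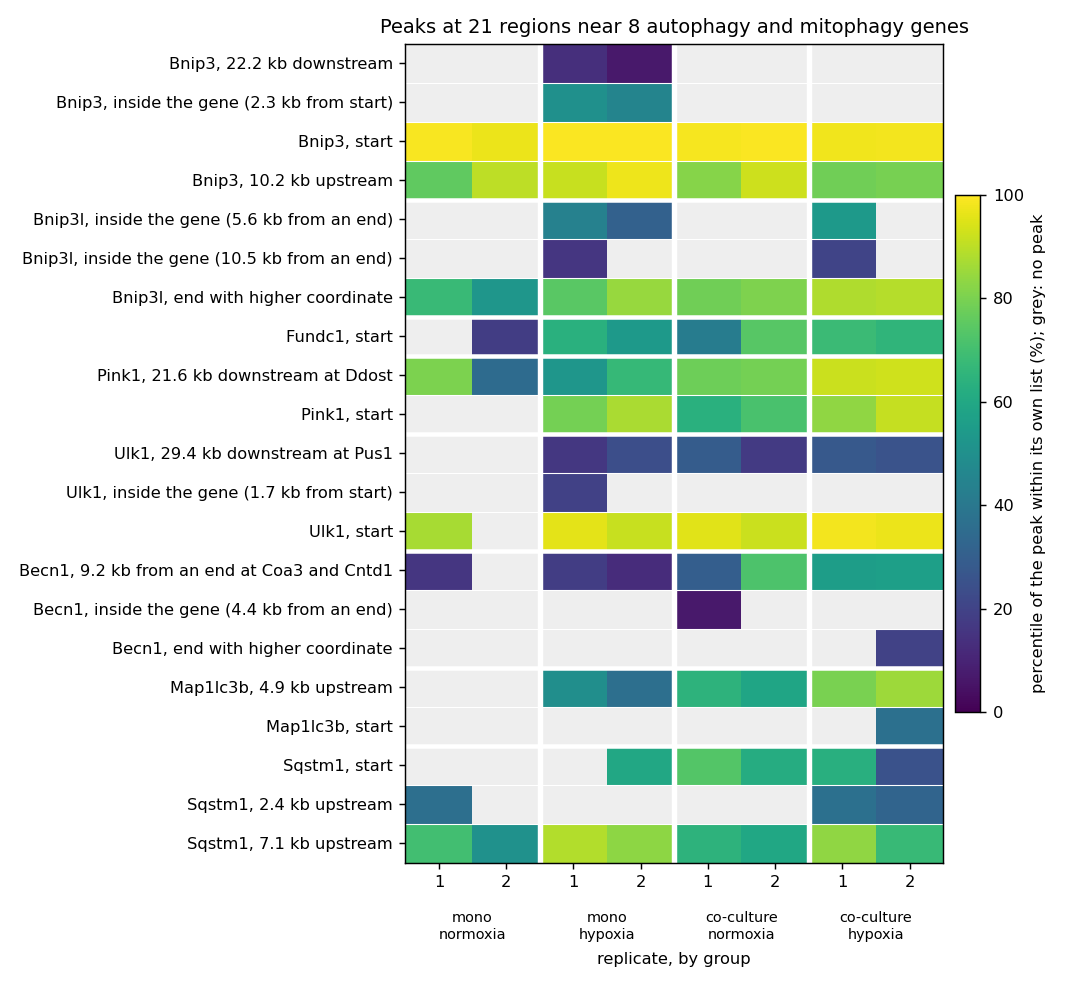
Peaks at the 21 regions (rows, named by gene and distance of the summit from the start site or, for Bnip3l and Becn1, a gene end) in the 8 libraries (columns, 2 replicates for each group). Colour gives the percentile of the peak within its own list in percent and grey means no peak. The Bnip3 start is at 97.1 or higher in every library, and both monoculture normoxia columns hold the fewest peaks, 8 and 6.

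By −log10 p the Bnip3 start ranked highest of the member regions in 7 libraries, and the Ulk1 start in 1, co-culture hypoxia replicate 1. The Bnip3 start lay at chr7:138909248-138910220, with summits at positions -281 to -245 bp from the start site in all 8 libraries. Its list percentile was 99.1 and 97.1 in normoxic monoculture, 99.5 and 99.5 in hypoxic monoculture, 98.6 and 99.3 in normoxic co-culture and 98.0 and 98.3 in hypoxic co-culture. The peak was thus among the strongest of each library at both oxygen levels and in both cultures. The summits held an estimated 83 to 238 fragments, against a median of 18 to 30 over all peaks of a list. The deposited fold over background was 6.77 to 11.3, and that of the Ulk1 start was 11.2 to 14.6 in the 7 libraries that had it.

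A further Bnip3 region, 10.2 kb upstream (chr7:138919162-138920130), was also found in all 8 libraries and overlapped no annotated gene. In monoculture its list percentile was 75.6 and 90.2 under normoxia and 91.4 and 97.5 under hypoxia, and in co-culture it was 81.9 and 92.5 under normoxia and 78.1 and 79.7 under hypoxia. Replicates of the first 3 of these groups lay further apart than those of co-culture hypoxia. The remaining Bnip3 regions were weaker and were found in both hypoxic monoculture libraries and nowhere else. One lay inside the gene, 2.3 kb from the start site, with list percentiles of 50.3 and 45.0. The other lay beyond the far end of the gene, with list percentiles of 13.5 and 7.03. Neither was among the 9910 strongest peaks of a library, the length of the shortest list, and with lists thinned to the lowest coverage the one beyond the far end was left in 1 library.

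For Bnip3l, the relative of Bnip3 also called NIX, the region at the gene end with the higher coordinate (chr14:67008276-67009270) was found in all 8 libraries. Its list percentile was 67.9 and 52.5 in normoxic monoculture, 74.4 and 84.5 in hypoxic monoculture, 78.5 and 80.6 in normoxic co-culture and 88.1 and 88.9 in hypoxic co-culture. The lowest pair was monoculture normoxia and the highest co-culture hypoxia. The better ranked of its other regions, inside the gene and 5.6 kb from the end with the lower coordinate, was found in both hypoxic monoculture libraries and 1 of 2 hypoxic co-culture libraries, at 31.1 to 54.2. No normoxic library had it. The last Bnip3l region was found in 1 library of each hypoxic group, at 15.9 and 20.4.

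The Fundc1 start (chrX:17571583-17572473) was missing from monoculture normoxia replicate 1 and stood at the 18.0 percentile in replicate 2. In the other groups it stood at 63.4 and 53.9 in hypoxic monoculture, 41.9 and 74.2 in normoxic co-culture and 68.0 and 65.3 in hypoxic co-culture. The summit in monoculture normoxia rested on an estimated 10 fragments, against 16 to 35 elsewhere.

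Pink1 had a peak with its summit 586 to 639 bp inside the gene (chr4:138325467-138326323) in the 6 libraries outside monoculture normoxia and in neither of those 2. It stood at the 79.0 and 87.2 percentile in monoculture hypoxia, 63.4 and 71.2 in co-culture normoxia, and 83.5 and 91.1 in co-culture hypoxia. In co-culture both hypoxic values were above both normoxic ones, in lists of unequal length, and the share of all regions that did so was not counted. Among equal-number lists (the 9910 strongest peaks of each library) Pink1 was the single member region with this pattern of 6 libraries against 2. The other region counted with Pink1 lies past its far end at the start of Ddost, a subunit of the enzyme complex that attaches sugar chains to proteins (chr4:138304211-138305098). The Ddost start was found in all 8 libraries, at 80.4 and 34.8 in normoxic monoculture, 52.6 and 67.1 in hypoxic monoculture, 77.9 and 79.2 in normoxic co-culture and 91.9 and 92.8 in hypoxic co-culture. Its replicates in monoculture normoxia lay further apart than those of any other group.

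**Figure D2:**
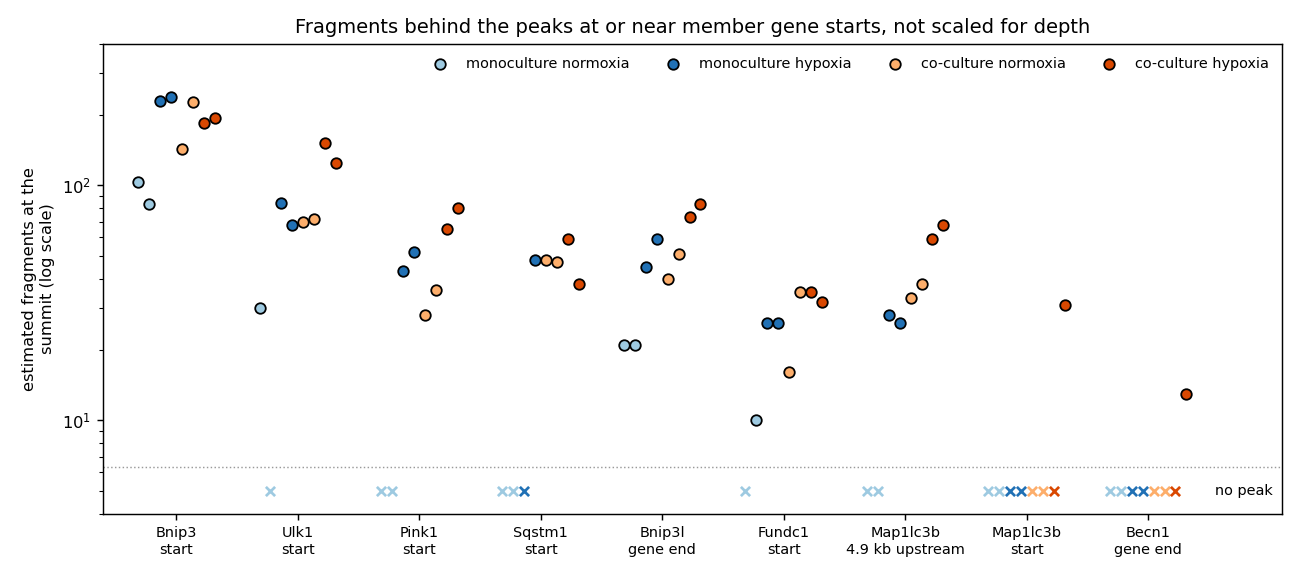
Estimated fragments at the peak summit (log scale, not scaled for depth) for each library at the start regions of the 8 genes and at the region 4.9 kb upstream of Map1lc3b. Points are single libraries coloured by group and crosses are libraries with no peak. The Bnip3 start holds 83 to 238 fragments, and Map1lc3b and Becn1 have a start or end peak in 1 co-culture hypoxia library each.

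Of the initiation genes, Ulk1, the kinase that begins autophagosome formation, had a strong start peak (chr5:110809789-110810542) in 7 libraries. It stood at the 86.7 percentile in monoculture normoxia replicate 1 and was missing from replicate 2. The other values were 95.8 and 91.6 in hypoxic monoculture, 95.6 and 91.9 in normoxic co-culture and 98.3 and 97.0 in hypoxic co-culture. A region past the far end of Ulk1, at the start of Pus1 (a pseudouridine synthase of transfer RNA), was found in the same 6 libraries as the Pink1 start, at 16.3 to 29.2. For Becn1, a subunit of the lipid kinase complex that nucleates the autophagosome, the gene end with the higher coordinate had a peak in co-culture hypoxia replicate 2 alone, at 19.8 and resting on an estimated 13 fragments. The best ranked region counted with Becn1 is 9.2 kb away, at the starts of Coa3 and Cntd1 (chr11:101278248-101279142). This Coa3 and Cntd1 region stood at 15.7 in monoculture normoxia replicate 1, 18.3 and 12.9 in hypoxic monoculture, 29.7 and 72.2 in normoxic co-culture and 55.7 and 56.6 in hypoxic co-culture. The low values were the monoculture ones, in lists of unequal length. Of the regions inside these 2 genes, the one in Ulk1 was found in monoculture hypoxia replicate 1 alone, at 19.3, and the one in Becn1 in co-culture normoxia replicate 1 alone, at 7.03.

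Map1lc3b had a peak at its start (chr8:121590309-121590734) in co-culture hypoxia replicate 2 alone, at the 36.8 percentile. A region 4.9 kb upstream (chr8:121585236-121585797) was found in the 6 libraries outside monoculture normoxia. It stood at 49.3 and 36.5 in hypoxic monoculture, 64.5 and 58.8 in normoxic co-culture and 80.1 and 85.4 in hypoxic co-culture, which was the highest pair. Among equal-number lists this upstream region was left in all 4 co-culture libraries and in none from monoculture, a pattern of 1.02% of all regions in those lists. The Sqstm1 start (chr11:50209904-50211116) was missing from both monoculture normoxia libraries and from monoculture hypoxia replicate 1. It stood at 59.8 in monoculture hypoxia replicate 2, 73.4 and 61.8 in co-culture normoxia, and 63.2 and 25.1 in co-culture hypoxia. The summits lay 511 to 636 bp inside the gene. A region 7.1 kb upstream of Sqstm1 (chr11:50217584-50218356) was found in all 8 libraries. Its list percentile was 69.9 and 50.6 in normoxic monoculture, 88.4 and 83.2 in hypoxic monoculture, 64.6 and 59.5 in normoxic co-culture and 83.4 and 67.5 in hypoxic co-culture. In each culture both hypoxic values were above both normoxic ones, a pattern that was not counted over all regions. A weaker Sqstm1 region 2.4 kb upstream was found in both co-culture hypoxia libraries and in monoculture normoxia replicate 1, at 32.2 to 36.9.

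Presence was then compared by oxygen and by culture. No member region (0 of 21) was found in all 4 hypoxic and no normoxic libraries, a pattern shown by 2.08% of all regions, and none was found in all 4 co-culture and no monoculture libraries, against 1.98%. The reverse patterns held for 0 of 21 as well, against 0.0196% of all regions for oxygen and 0.027% for culture. Left out singly, co-culture hypoxia replicate 2 gave 1 region by oxygen, the Bnip3l region 5.6 kb inside the gene, and monoculture hypoxia replicate 2 gave 1 by culture, the Sqstm1 start. Of all regions in those settings, 4.55% separated the oxygen levels and 2.92% the cultures, both directions together. In monoculture, 6 of 21 (28.6%) were found in both hypoxic and no normoxic libraries, against 17.7% of all regions, and none showed the reverse (0.179% of all). These were 2 regions of Bnip3, the Bnip3l region 5.6 kb inside the gene, the Pink1 start, the Pus1 start near Ulk1 and the region upstream of Map1lc3b. The share of all regions moved with single monoculture libraries. Without monoculture hypoxia replicate 1 it was 31.2%, beside 7 of 20 members. Without replicate 2 of that group it was 27.6%, and without monoculture normoxia replicate 1 it was 27.2%, beside 8 of 21 members each. With equal-number lists, in which 12 member regions remained, 1 of 12 (8.33%) was left, the Pink1 start, against 7.39% of all regions. In co-culture, 1 of 21 (4.76%), the Sqstm1 region 2.4 kb upstream, was found in both hypoxic and no normoxic libraries, against 6.09%. None showed the reverse (2.05% of all). With equal-number lists 0 of 12 were found in both hypoxic and no normoxic co-culture libraries, against 5.45% of all regions. The reverse then held for 1 of 12 (8.33%), the Sqstm1 start, against 5.73%. In normoxia, 4 of 21 (19.0%) were found in both co-culture and no monoculture libraries, against 12.5%, namely the Pink1 start, the Pus1 start, the region upstream of Map1lc3b and the Sqstm1 start. None showed the reverse, against 0.181% of all regions. With equal-number lists 3 of 12 (25.0%) had the pattern in normoxia, against 4.88% of all regions. These were the Pink1 start, the region upstream of Map1lc3b and the Sqstm1 start. The reverse held for 0 of 12, against 2.96%.

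The regions missing from monoculture normoxia alone were the Pink1 start, the Pus1 start and the Map1lc3b upstream region, 3 of 21 (14.3%) against 4.97% of all regions. This pattern was singled out after the values were seen. Monoculture normoxia also had the shortest lists and the lowest coverage. After thinning of the lists to equal coverage the count was again 3 of 21, against 4.83% of all regions, and with equal-number lists it was 1 of 12, against 1.11%. Leaving out monoculture normoxia replicate 1 gave 5 of 21, against 11.1% of all regions. With 21 regions at 8 genes, the shares for members rest on few regions and were not tested.

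**Figure D3:**
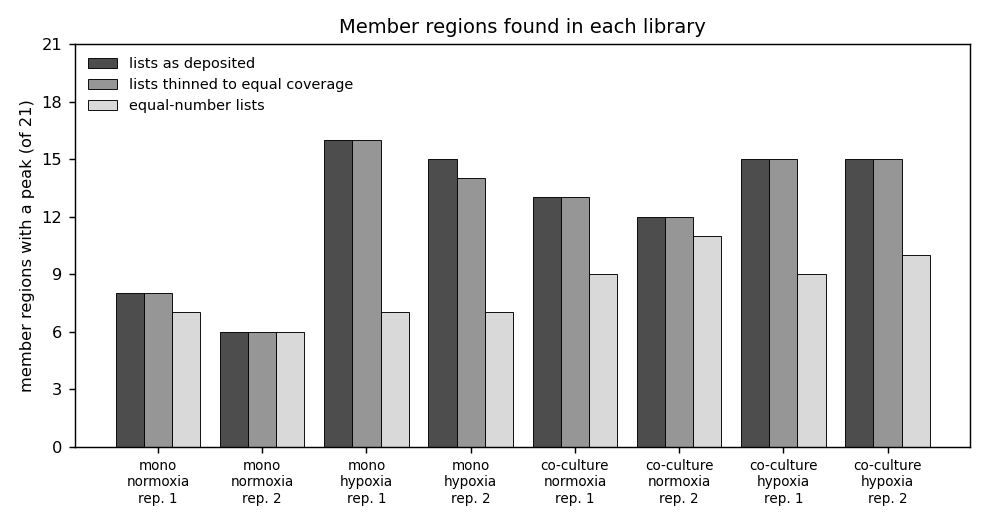
Number of the 21 member regions with a peak in each library (bars from 0), in the lists as deposited, in lists thinned to equal estimated coverage and in equal-number lists of 9910 peaks. Monoculture normoxia has 8 and 6 and the other libraries 12 to 16 in the deposited lists, while equal-number lists give 6 or 7 in monoculture and 9 to 11 in co-culture.

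Across libraries, the share of member regions with a peak was 38.1% and 28.6% in monoculture normoxia, where 30.8% and 23.1% of all regions were found. It was 76.2% and 71.4% in monoculture hypoxia (all regions 57.3% and 62.3%), 61.9% and 57.1% in co-culture normoxia (51.7% and 51.5%) and 71.4% and 71.4% in co-culture hypoxia (70.7% and 51.5%). Members and all regions were thus found least often in the same 2 libraries.

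Rank was compared within the 6375 regions that had a peak in all 8 lists, so that every library was ranked over the same regions. The common-set percentile was turned into a normal score (the standard normal value at that percentile) and fitted with limma, with p-values adjusted over all 6375 regions. Of the 21 member regions 5 could be fitted: the Bnip3 start, the Bnip3 region 10.2 kb upstream, the Bnip3l gene end, the Ddost start near Pink1 and the Sqstm1 region 7.1 kb upstream. The other 16 lacked a peak in at least 1 library, so the fit covers the members that were open everywhere. Limma called 0 of 5 for oxygen (10.1% of all regions were called), 0 of 5 for culture (10.8%) and 0 of 5 for their interaction (0.0%). These shares of all regions moved with single libraries. No region was called for culture when any 1 library outside monoculture normoxia was left out. For oxygen, leaving out 1 of those 6 gave 0 to 361 calls in place of 643. Ranked by fold, 53 of 6375 were called for oxygen and 11 for culture. At an unadjusted p under 0.05 it had 1 of 5 for each, against 29.9%, 32.0% and 9.8% of all regions. The median effect of the 5 members was 0.216 for oxygen, -0.313 for culture and 0.248 for the interaction, beside -0.002, 0.006 and -0.037 over all regions.

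**Figure D4:**
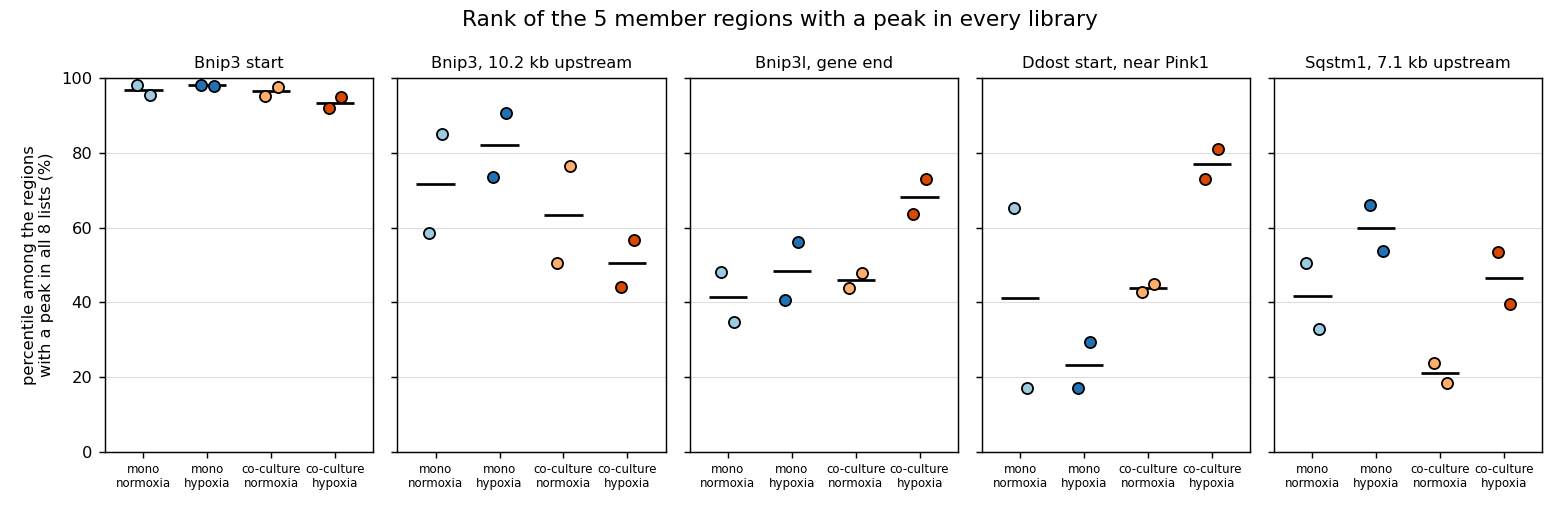
Percentile of each of the 5 fitted regions among the 6375 regions with a peak in every list, by group. Points are the 2 libraries of a group and the line is their mean. The Bnip3 start stays between 92.0 and 98.3, and the Ddost start ranges from 17.1 to 81.2.

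The Bnip3 start had a mean common-set percentile of 96.8 ± 1.82 (SD, n = 2) in normoxic monoculture, 98.2 ± 0.266 in hypoxic monoculture, 96.5 ± 1.63 in normoxic co-culture and 93.5 ± 2.13 in hypoxic co-culture. Hypoxia minus normoxia was -0.057 on the normal score scale (SE 0.198, limma adjusted p = 0.879), and hypoxic and normoxic libraries overlapped. Ranked by fold it was -0.442 (SE 0.302, adjusted p = 0.459). In co-culture alone both hypoxic values, 92.0 and 95.0, lay below both normoxic ones, 95.3 and 97.7. The share of all regions separated in this way was not counted. The difference did not pass the test (-0.312, SE 0.280, limma adjusted p = 0.549), which 1.16% of all regions passed for this contrast. For the Bnip3 region 10.2 kb upstream the oxygen effect was -0.0002 (SE 0.276), which with its SE leaves room for differences in either direction, and ranked by fold it was -0.248 (adjusted p = 0.716). Co-culture minus monoculture was -0.613 there (SE 0.276, adjusted p = 0.157), with means of 57.0 and 77.0 and overlapping libraries.

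The Bnip3l gene end averaged 41.5 ± 9.54 (SD, n = 2) in normoxic monoculture, 48.5 ± 11.0 in hypoxic monoculture, 45.9 ± 2.75 in normoxic co-culture and 68.4 ± 6.75 in hypoxic co-culture. Hypoxic and normoxic libraries overlapped in monoculture and not in co-culture, where the hypoxic values of 63.6 and 73.1 lay above 43.9 and 47.8. How many of all regions did the same was not counted. Neither the oxygen effect (0.383, SE 0.201, limma adjusted p = 0.225) nor its difference between cultures (0.405, SE 0.402, adjusted p = 0.756) passed the test. The oxygen effect was 0.219 without monoculture normoxia replicate 2 and -0.09 ranked by fold. The difference between cultures was 0.216 without monoculture normoxia replicate 1, 0.207 without replicate 1 of hypoxic monoculture and 0.263 without replicate 2 of hypoxic co-culture. It was 0.878 (SE 0.468, adjusted p = 0.492) with equal-number lists and 0.248 ranked by fold.

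The Sqstm1 region 7.1 kb upstream had the smallest adjusted p of the 5 for oxygen. Its common-set percentile was 50.6 and 32.7 in normoxic monoculture, 66.0 and 53.6 in hypoxic monoculture, 23.8 and 18.5 in normoxic co-culture and 53.5 and 39.5 in hypoxic co-culture. Both hypoxic libraries were above both normoxic ones in each culture, with means over cultures of 53.2 in hypoxia and 31.4 in normoxia. The share of all regions separated in this way was not counted. The oxygen effect of 0.591 (SE 0.209) did not pass after adjustment (limma adjusted p = 0.096). It was 0.385 without monoculture normoxia replicate 2 and 0.181 ranked by fold. The culture effect was -0.465 (SE 0.209, adjusted p = 0.157). It passed with equal-number lists, at -0.836 with an adjusted p of 0.0485.

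The Ddost start near Pink1 had the smallest adjusted p for culture. Its common-set percentile was 65.4 and 17.1 in normoxic monoculture, 17.1 and 29.3 in hypoxic monoculture, 42.8 and 44.9 in normoxic co-culture and 72.9 and 81.2 in hypoxic co-culture. Co-culture hypoxia was highest, and monoculture normoxia replicate 1 stood apart from the other monoculture libraries. The culture effect was 0.808 (SE 0.288, limma adjusted p = 0.0906). It was 1.094 without monoculture normoxia replicate 1 and 0.435 without replicate 2. The interaction was 1.372 (SE 0.577, adjusted p = 0.498), and 0.680 without monoculture normoxia replicate 1.

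**Figure D5:**
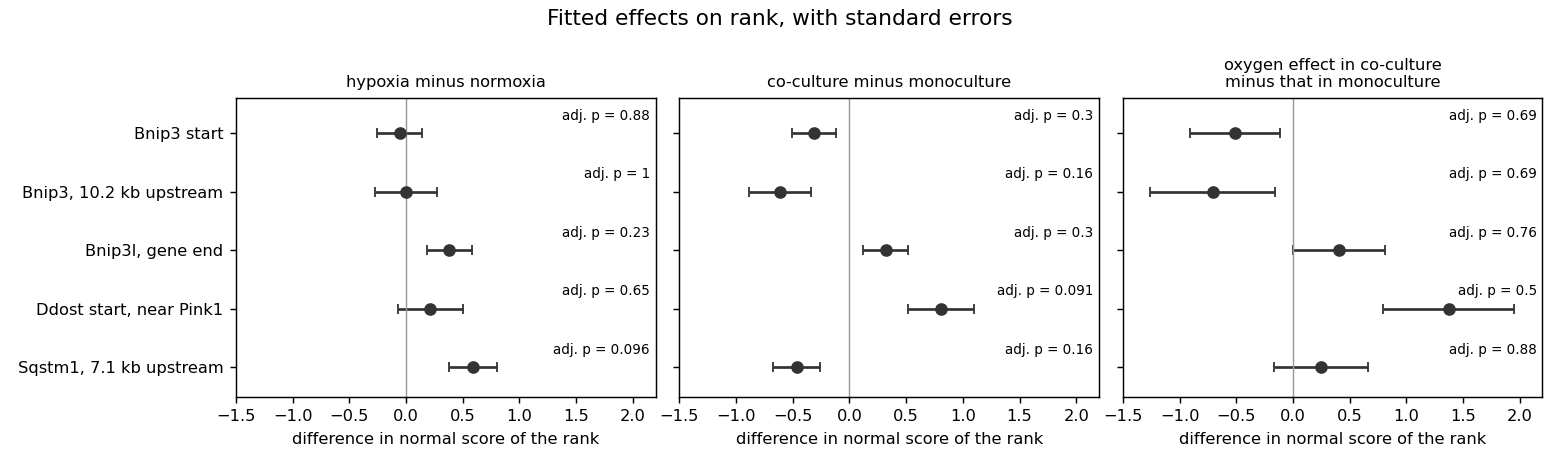
Fitted differences in normal score of the rank (points) with standard errors (bars) for the 5 regions, for hypoxia minus normoxia, co-culture minus monoculture and their interaction, with limma adjusted p-values. No adjusted p is under 0.05, and the smallest are 0.096 for oxygen at the Sqstm1 region and 0.091 for culture at the Ddost start.

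By likeness of common-set percentile over the 8 libraries, the protein-coding gene starts nearest to Bnip3 among the 4045 others compared were Mmd, with a root mean square difference of 1.00 percentile points, and Hsbp1, with 1.49. For Bnip3l they were Cryl1, with 6.96, and Psma1, with 7.38. These are descriptions over 8 libraries.

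Of 60 further autophagy and mitophagy genes in 9 lists, 57 had a start region in at least 1 library and 20 (33.3%) in all 8, against 49.6% and 18.5% of protein-coding genes. The 3 with none were Pik3c3, Atg7 and Wdfy3. Open in all 8 libraries were 2 of 4 genes of the Ulk1 initiation complex, 0 of 6 of the class III PI3 kinase complex that holds Becn1, 4 of 7 of phagophore growth, 4 of 10 of Atg8 conjugation, 1 of 4 of the Atg8 family (the relatives of LC3B), 3 of 6 cargo receptors, 4 of 12 mitophagy receptors and regulators, 1 of 8 kinases and transcription factors over autophagy and 1 of 3 Bcl2 family partners. Missing from monoculture normoxia alone were 5 of 60 (Atg2a, Atg5, Vdac1, Tfeb and Foxo3), against 4.43% of protein-coding gene starts.

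Of the 20 that could be fitted, limma called 2 lower and 0 higher in hypoxia, against 5.25% and 4.83% of all regions. Atg101, a subunit of the initiation complex, stood at list percentiles of 50.4 and 67.9 in normoxic monoculture, 5.45 and 7.65 in hypoxic monoculture, 62.8 and 66.5 in normoxic co-culture and 45.0 and 67.8 in hypoxic co-culture (effect -1.34, adjusted p = 0.0203). Tollip, a ubiquitin-binding adaptor, stood at 45.5 and 70.5, 9.32 and 22.7, 71.6 and 79.6, and 56.9 and 63.4 in the same order (-1.213, adjusted p = 0.0256). For both genes hypoxic monoculture held the low values, and the difference between cultures did not pass the test (interaction adjusted p = 0.289 for Atg101 and 0.411 for Tollip). The Atg101 call was lost without either monoculture hypoxia library, co-culture normoxia replicate 2 or co-culture hypoxia replicate 1 (adjusted p from 0.0627 to 0.0951). The Tollip call was lost without those 4 libraries or co-culture hypoxia replicate 2 (0.0587 to 0.113). The effects were then -1.085 to -1.351 for Atg101 and -1.026 to -1.363 for Tollip. In those 5 settings limma called 0 to 70 regions in all for oxygen, in place of 643. Ranking by fold (0.0545 for Atg101 and 0.0629 for Tollip) and the percentile scale (0.18 and 0.108) ended both calls.

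For culture, limma called 2 of 20 higher in co-culture and 0 lower, against 4.99% and 5.84% of all regions. Bcl2l13, a mitophagy receptor, stood at list percentiles of 9.63 and 26.9 in normoxic monoculture, 48.2 and 31.1 in hypoxic monoculture, 71.9 and 59.6 in normoxic co-culture and 78.6 and 58.4 in hypoxic co-culture (effect 1.068, adjusted p = 0.042). Dnm1l, the GTPase of mitochondrial fission, stood at 20.5 and 9.34, 53.1 and 18.6, 59.5 and 71.6, and 61.3 and 62.8 in the same order (1.092, adjusted p = 0.0452). On the common-set percentile, co-culture libraries lay at 18.5 to 45.1 and monoculture ones at 1.15 to 13.8 for Bcl2l13. For Dnm1l they lay at 19.0 to 33.8 and 1.40 to 17.5. Of all 6375 regions 5.62% had all 4 co-culture libraries above all 4 monoculture ones in this way. The Bcl2l13 call was lost without any 1 library other than monoculture normoxia replicate 2 (adjusted p from 0.0666 to 0.154), and the Dnm1l call without any 1 other than monoculture normoxia replicate 1 (0.057 to 0.152). The effects were then 0.756 to 1.194 for Bcl2l13 and 0.783 to 1.377 for Dnm1l. Without any 1 library outside monoculture normoxia, limma called no region at all for culture, in place of 690. Both calls were also lost with thinned lists (limma adjusted p = 0.0658 for Bcl2l13 and 0.0551 for Dnm1l), ranked by fold (0.326 and 0.107) and on the percentile scale (0.0596 and 0.0741). Ranked by fold the effect was 0.671 for Bcl2l13 and 1.191 for Dnm1l. Without monoculture normoxia replicate 2 the count for culture was 5 of 30 fitted, against 10.1% of all regions. For the interaction limma called 0 of 20. At an unadjusted p under 0.05 it had 7 of 20 for oxygen, 8 for culture and 3 for the interaction, against 29.9%, 32.0% and 9.8% of all regions.

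By presence, 1 of 60 pathway genes separated the oxygen levels: Gabarap, a relative of LC3B, had a start region in all 4 hypoxic and no normoxic libraries, at list percentiles of 9.35 to 33.3. Of protein-coding genes 0.265% had this pattern. Rubcn, a regulator of the Becn1 complex, and Prkaa1, a catalytic subunit of the AMPK energy sensor, had one in all 4 co-culture and no monoculture libraries, at 14.5 to 68.3 and 8.79 to 34.8. These were 2 of 60, against 1.33% of protein-coding genes. The count by oxygen was 2 without monoculture hypoxia replicate 2 or co-culture normoxia replicate 2, against 0.507% and 0.841% of protein-coding genes in those settings. The count by culture was 6 without monoculture hypoxia replicate 2, against 2.22%, and 1 without co-culture normoxia replicate 1, against 2.06%. Within 50 kb of the members 9 regions could be fitted and 1 was called for culture, against 10.8% of all regions. It lay at the start of Fbxo31 (chr8:121578566-121579392, 11.0 kb from Map1lc3b), and was higher in co-culture (effect 0.803, limma adjusted p = 0.0435).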

How the data were processed

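One peak list per library was deposited, so peaks were not called on pooled replicates. Per the submitters' processing notes, Trimmomatic 0.36, HISAT2 2.1.0, Picard, SAMtools, deepTools and MACS2 2.1.1.2 were used with build mm10, with no role or order given. Read shifting and filters are not given in the sources used here. The lists as deposited give, for each peak, its score, fold over the background of that library, summit offset, −log10 p and −log10 q. The lowest deposited −log10 q was just above 2 in every list. These values are the authors' and were used to rank or describe peaks within a list. They also set the limit of a −log10 q of at least 5, and the estimated fragments, coverage and thinned lists were derived from them.

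Overlapping peaks of the 8 lists were merged. Percentiles are 100 × (rank − 0.5)/n. Regions in all 8 lists were fitted with limma 3.58.1 (R 4.3.3), with a mean for each of the 4 groups, 4 residual degrees of freedom and Benjamini-Hochberg adjustment, and a call was an adjusted p under 0.05. The fit was also run on simulated data with independent noise and no differences in depth or list length. That run does not bear on how the calls here move when a library is left out. Presence counts had no test. The p-values measure the spread between cultures of BV2 cells, grown alone or with GL261 cells. Limma moderated that spread toward the spread over all fitted regions, which adds to the 4 residual degrees of freedom. Fragments at a summit and coverage were solved from the deposited fold and −log10 p, taking the fold as (n + 1)/(b + 1) and p as Poisson. The −log10 p was recovered within 0.001 for 100.0% of peaks with a −log10 p up to 250. No read totals were used here.

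Gene bodies and start sites came from RefSeq tables of GRCm38.p6. Start sites were found for 6 of 8 members, 51 of 60 pathway genes, 19 of 24 marker genes and 17492 of 21887 protein-coding genes. For the others either gene end counted as the start. Exons were not in the tables used. Named were all members with each start region, other regions that passed a test or separated 4 libraries from 4, or else the best ranked other region of a gene, and pathway genes that passed a test or separated 4 libraries from 4. The members and lists were chosen with earlier results of these data known. Alternatives were equal-number lists, a −log10 q of at least 5, summit windows of 250 bp on each side, no peaks over 10 kb, ranking by fold, the percentile scale, a replicate block, no regions in the lowest 0.25 by mean rank, other windows (2 and 50 kb around genes, 500 bp and 2 kb at starts) and leaving out each library. Thinned lists, the 2 counts on monoculture normoxia and the counts of pathway genes were added after the data were seen. Python 3.11.15 was used.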

Additional observations from a re-analysis of the deposited data

How the results depend on the processing

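A region missing from a list did not pass the authors' threshold in that library, which does not show that it was closed. No member region was called for oxygen or the interaction under any alternative run. Of the alternatives for the principal counts, 146 kept the count within 1.5 times, 30 gave fewer and 16 more. Apart from fewer genes or samples fitted, the causes of the moves were not tested.

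Equal-number lists gave 1 culture call (Sqstm1, 7.1 kb upstream), 1 region separating the cultures (Map1lc3b upstream), 1 region missing from monoculture normoxia alone and 1 gained in hypoxic monoculture. A −log10 q of at least 5 gave 5 of 20 regions missing from monoculture normoxia alone, against 5.98% of all regions. A 2 kb window gave 1 of 13 with this pattern and 3 of 13 gained in hypoxic monoculture, against 4.97% and 17.7% of all regions. With a 50 kb window 5 of 45 were missing from monoculture normoxia alone, against 4.97%, and 1 of 9 was called for culture, against 10.8%. With 1 library left out, regions missing from monoculture normoxia alone ranged from 3 to 5, against 5.52% to 11.1% of all regions. Those separating oxygen levels or cultures ranged from 0 to 1 each, against 2.33% to 4.55% for oxygen and 2.24% to 2.92% for culture.

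Pathway genes called for oxygen or for culture numbered 0 with equal-number lists, a −log10 q of at least 5, ranking by fold, the percentile scale and without the lowest 0.25 of regions by mean rank. The equal-number lists left 11 pathway genes to fit, and the −log10 q limit and the removal by mean rank 16 each, and none of Atg101, Tollip, Bcl2l13 and Dnm1l was among them. By fold and percentile all 20 were fitted. With thinned lists, where Atg101 was not among the 19 fitted, they numbered 1 for oxygen and 0 for culture. Pathway genes separating the cultures by presence numbered 1 of 60 with equal-number lists, 5 at a −log10 q of at least 5 and 4 with thinned lists, against 0.694%, 1.37% and 1.48% of protein-coding genes. Those separating oxygen levels numbered 2 with thinned lists, against 0.27%. With 1 library left out, presence counts of pathway genes ranged from 1 to 2 of 60 for oxygen, against 0.315% to 0.841% of protein-coding genes. For culture they ranged from 1 to 6 of 60, against 1.41% to 2.3%.

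Some effects that did not pass the test changed direction. The Bnip3 upstream oxygen effect was 0.011 at a −log10 q of at least 5 and 0.009 with thinned lists. Ranked by fold, the Bnip3 start interaction was 0.326, the Bnip3l oxygen effect -0.09 and the Sqstm1 interaction -0.19. With 1 library left out, the oxygen effect ranged from -0.164 to 0.036 at the Bnip3 start, from -0.218 to 0.175 at the Bnip3 upstream region and from -0.18 to 0.501 at the Ddost start, and the Sqstm1 interaction from -0.03 to 0.41.

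Replicate numbers are shared between groups, but deviations of same-numbered libraries correlated by -0.04 to 0.176 and do not show that the numbers pair the libraries. With a replicate block 0 of 5 members were called for oxygen, culture or the interaction. In that paired fit 3 of 20 pathway genes were called for oxygen and 1 of 20 for culture, against 9.44% and 9.68% of all regions. Bcl2l13 and Dnm1l were then at a limma adjusted p of 0.0511 for culture.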
